A study of Homo sapiens with 36 samples.

Results

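The lysosome genes described here are 53 named genes for proteins of the lysosome: hydrolases, luminal cofactors, membrane proteins, subunits of the proton pump V-ATPase and the MiT/TFE transcription factors. The list was given by gene symbol, with no threshold on a measured value, but was chosen with earlier results of these data known. All 53 were found among the 35472 genes of the deposited tables. Bulk RNA was sequenced in 36 libraries from 2 human cell lines of acute myeloid leukaemia, MOLM-13 and MONO-MAC-6. MOLM-13 cells received DMSO, the vehicle, or A9 at 0.125 µM, and MONO-MAC-6 cells received DMSO or A9 at 0.25 µM, each for 72 h. A9 is a PROTAC, a molecule that brings a target protein to a ubiquitin ligase for degradation. The study's design text names IKK2 and NR4A1 as its targets and its title names IKK1 and NR4A1. Because a PROTAC acts on protein, RNA levels do not check whether the targets were lost. No inactive control compound was among the samples used here.

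Line and dose cannot be told apart in any comparison of the response between the lines, because the doses differed. The 9 libraries of a group carry a first and a second number. Libraries that share the first number were averaged, which gave 3 samples per group, the number that the design text states. Averaging by the second number would also give 3, and the labels do not say which number marks the replicate. The counts of passing genes depend on this choice, as given at the end. No label says that the samples came from separate cultures, so the p-values measure only the spread between these samples. Levels are TPM, a unit that divides by transcript length and gives every library an equal sum. In bulk RNA, fewer cells of a kind and less RNA per cell cannot be told apart.

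Lysosomes are acidic organelles that break down protein, glycans, lipids and nucleic acids. Most of their hydrolases are made as inactive precursors, are tagged with mannose-6-phosphate in the Golgi and mature at low pH, which the V-ATPase sets up by pumping protons. TFEB, TFE3 and MITF are transcription factors that enter the nucleus when their phosphorylation by mTORC1 falls, and they bind the CLEAR element, a motif around CACGTG found before many lysosome genes. Monocytes and macrophages are rich in lysosomes, and genes such as CD68 and CTSD are commonly high in them.

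The CLEAR core is shown in the stretches below because the list was examined for a shared upstream sequence. RefSeq promoters (GRCh38.p14, 250 bases before and 50 after the start) matched 39 of the 53 genes. The motif CACGTG, which reads the same on both strands, was in 11 of the 39 (28.2%), against 7.43% of 27305 RefSeq promoters of the same length and 10.5% of the promoters of genes tested in MONO-MAC-6. The longer TCACGTGA, which contains it, was in 6 of the 39 (15.4%), against 1.04% of all promoters and 2.11% of those of genes tested in MONO-MAC-6. GTCACGTGAC, which contains both, was in 3 (7.69%), against 0.381% and 0.874%. The 250 bases before the start are printed 5′ to 3′ for the 3 genes that held the motif and rose in MONO-MAC-6, and for LAMP1 and MCOLN1, which were chosen after their matches were seen. Capitals mark CACGTG or, where one was present, the longer match that contains it. The first match began 47 bases before the start in CTSD (chr11:1763928-1764177, minus strand), 216 before it in IFI30 (chr19:18173563-18173812, plus strand), 76 before it in GAA (chr17:80101331-80101580, plus strand), 192 before it in LAMP1 (chr13:113296989-113297238, plus strand) and 41 before it in MCOLN1 (chr19:7522374-7522623, plus strand).
CTSD: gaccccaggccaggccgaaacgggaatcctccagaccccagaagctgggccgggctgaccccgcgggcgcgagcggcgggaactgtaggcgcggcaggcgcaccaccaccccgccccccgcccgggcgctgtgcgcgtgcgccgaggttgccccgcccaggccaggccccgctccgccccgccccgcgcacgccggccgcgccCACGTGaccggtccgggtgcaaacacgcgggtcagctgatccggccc
IFI30: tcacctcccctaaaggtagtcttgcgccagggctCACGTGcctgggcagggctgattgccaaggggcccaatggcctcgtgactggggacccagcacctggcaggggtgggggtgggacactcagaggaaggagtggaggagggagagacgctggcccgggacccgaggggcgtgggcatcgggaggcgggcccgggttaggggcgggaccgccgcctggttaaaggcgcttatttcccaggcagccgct
GAA: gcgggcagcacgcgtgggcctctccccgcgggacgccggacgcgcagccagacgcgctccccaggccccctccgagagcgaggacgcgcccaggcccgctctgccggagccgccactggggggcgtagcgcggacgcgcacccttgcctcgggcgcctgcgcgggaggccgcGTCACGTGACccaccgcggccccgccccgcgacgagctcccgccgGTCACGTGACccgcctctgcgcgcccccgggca
LAMP1: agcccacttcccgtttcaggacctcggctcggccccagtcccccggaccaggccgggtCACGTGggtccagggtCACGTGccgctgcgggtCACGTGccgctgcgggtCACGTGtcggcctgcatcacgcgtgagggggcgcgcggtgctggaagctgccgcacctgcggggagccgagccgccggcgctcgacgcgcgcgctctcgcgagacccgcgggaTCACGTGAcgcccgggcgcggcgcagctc
MCOLN1: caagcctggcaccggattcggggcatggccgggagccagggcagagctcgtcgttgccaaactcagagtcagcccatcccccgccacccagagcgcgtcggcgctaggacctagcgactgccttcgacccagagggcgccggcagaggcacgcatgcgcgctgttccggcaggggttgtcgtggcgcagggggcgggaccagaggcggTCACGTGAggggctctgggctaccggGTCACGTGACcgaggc

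CTSD and IFI30 have 1 match in the printed stretch, GAA and MCOLN1 have 2, and LAMP1 has 5 and another that spans its start. The genes CTSD and IFI30 are longer in GENCODE 29 than in RefSeq, so these stretches lie inside their GENCODE bounds. In MONO-MAC-6, 3 of 10 tested genes with CACGTG passed the threshold defined below, and 9 of 28 without it did. The median log2 fold change was 0.379 with the motif and 0.474 without it. A match describes the letters in this window and is not evidence of a bound factor.

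The genes as a whole stood higher in MONO-MAC-6 than in MOLM-13, and higher again in MONO-MAC-6 treated with A9. Their summed level was 1987, 1925 and 1824 TPM in the 3 MOLM-13 DMSO samples and 2111, 2226 and 1935 TPM with A9. In MONO-MAC-6 it was 3333, 3725 and 3984 TPM with DMSO and 5714, 6287 and 6104 TPM with A9, a ratio of the means of 1.64. The A9 samples of MONO-MAC-6 lay above all 3 of its DMSO samples, whereas the groups of MOLM-13 overlapped. By role, the ratio in MONO-MAC-6 was 2.48 for the lipid hydrolases and their activators, 2.09 for the other luminal proteins, 1.77 for the cathepsins and other proteases, 1.48 for the sulfatases and 1.38 for the glycosidases. It was 1.35 for the membrane proteins, 1.26 for the MiT/TFE factors, 1.20 for the V-ATPase and 1.19 for the cholesterol exporters. These sums are led by a few abundant genes and carry no test.

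**Figure D1:**
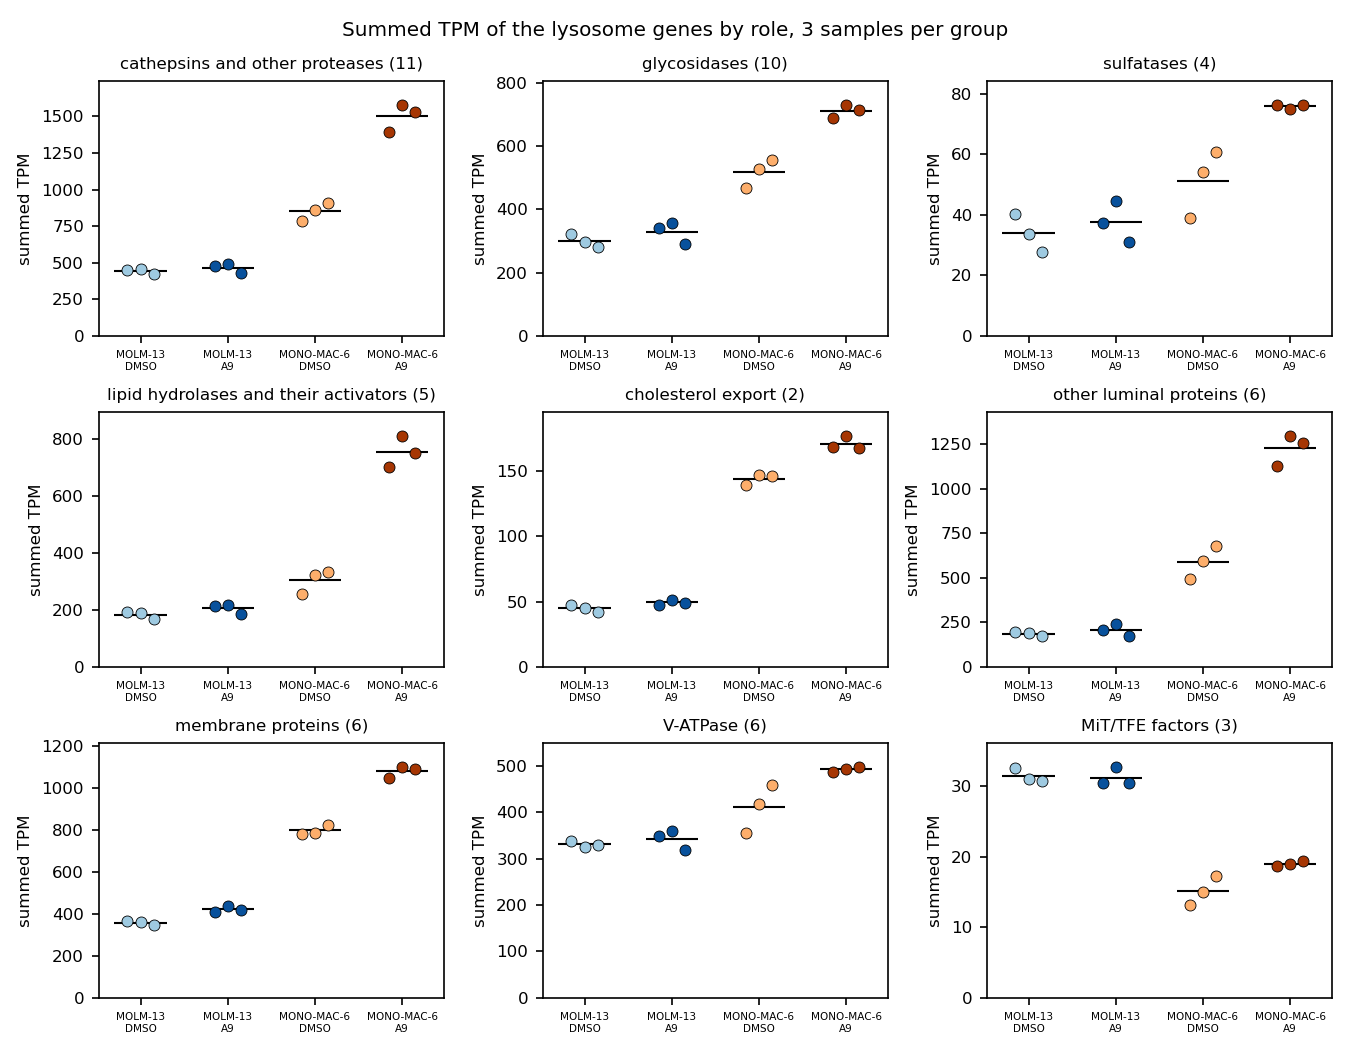
Summed TPM of the lysosome genes in 9 role groups (number of genes in brackets), 1 point per sample with the mean as a bar, for DMSO and A9 in both lines. In MONO-MAC-6 the lipid hydrolases and their activators went from 257 to 333 TPM with DMSO to 702 to 812 TPM with A9, while the V-ATPase went from 355 to 459 TPM to 487 to 498 TPM.

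The libraries themselves differed in ways that bear on these values. Between 86918 and 105082 transcripts were above 0 in a library, and read depth is unknown because TPM hold no counts. MONO-MAC-6 DMSO sample 1 stood apart: it was the lowest of the 3 DMSO samples for 71.2% of all 12869 genes tested in that line and for 38 of 51 lysosome genes (74.5%). Results in MONO-MAC-6 are therefore given with and without it where that changes them. Both lines carried myeloid markers. Summed TPM of the 8 myeloid markers was 414 to 483 with DMSO and 614 to 727 with A9 in MOLM-13, and 3405 to 3963 and 8002 to 8291 in MONO-MAC-6. LYZ, the lysozyme gene, made up most of it in MONO-MAC-6, at 3068 to 3624 TPM with DMSO and 7564 to 7868 TPM with A9. In MOLM-13 it was at 122 to 141 TPM with DMSO, below SPI1 at 158 to 165 TPM, and at 317 to 343 TPM with A9. The T cell, erythroid, megakaryocyte, fibroblast and epithelial lists summed to at most 1.58 TPM in any sample. CD3E, CD2, PF4, PPBP and KRT19 were listed at 0 throughout.

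In MONO-MAC-6, 15 of the 51 lysosome genes tested passed as higher with A9 and none passed as lower with all samples. They were led by IFI30, CTSD, CD68 and PSAP, whose mean levels were 4.68, 4.26, 3.29 and 3.04 times those with DMSO. A gene was tested if its mean was at least 1 TPM in a group, and it passed if limma gave an adjusted p under 0.05 on log2(TPM + 1), with Benjamini-Hochberg adjustment over all genes tested. Over all genes tested in this comparison 3.36% passed, 2.51% higher and 0.855% lower. Of all passing genes, 74.6% were thus higher, against 61.5% with a scaling of the libraries by the median of ratios and 53.2% once each sample's trend on transcript length was removed. Those settings called 14 and 20 of the 51 lysosome genes, again all higher, against 4.3% (2.64% higher) and 9.29% (4.94% higher) of all genes. The median log2 fold change of the 51 was 0.442, against 0.161 over all genes tested. With the median-of-ratios scaling, the median over all genes was 0.00688 and that of the lysosome genes 0.263. All A9 samples lay above all DMSO samples for 41 of the 51 and below them for CTSC and CTSS. Over all genes tested, groups did not overlap in 37.9%, with A9 higher in 27.2% and lower in 10.6%. The fitted difference was above 0 for 47 of the 51, against 70.4% of all genes. These contrasts with all genes are descriptive, because the list was chosen with earlier results of these data known. LGMN and NEU1 were below the minimum in both groups.

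The passing genes were 3 of 10 tested cathepsins and other proteases, 4 of 9 glycosidases, 2 of 4 sulfatases, 2 of 5 lipid hydrolases and activators, 3 of 6 other luminal proteins and 1 of 6 membrane proteins. Neither cholesterol exporter passed, nor did any of the 6 V-ATPase subunits or the 3 MiT/TFE factors. At an unadjusted p under 0.05, which 20.4% of all genes reached, limma had 1, 2 and 1 genes in these groups. All 10 genes with the largest differences among the 15 code for proteins of the lumen except CD68. The differences between role groups were not tested.

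**Figure D2:**
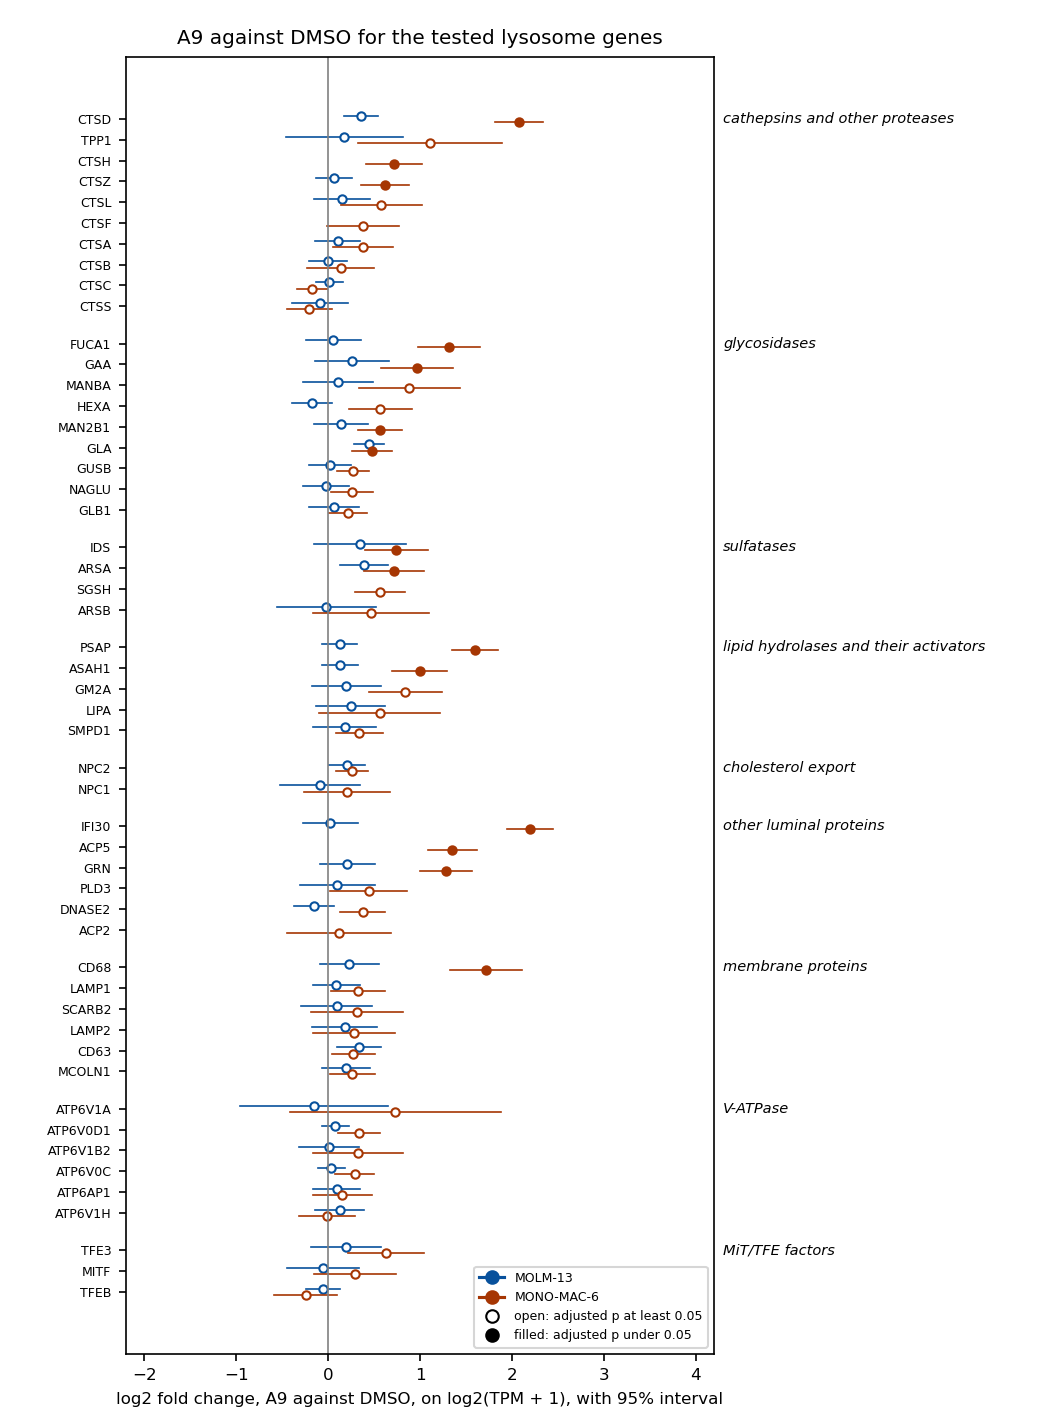
Log2 fold change of A9 against DMSO on log2(TPM + 1), with its 95% interval, for each tested lysosome gene in MOLM-13 and MONO-MAC-6, grouped by role. Filled points have an adjusted p under 0.05: 15 in MONO-MAC-6, led by IFI30 at 2.20 and CTSD at 2.08, and 0 in MOLM-13.

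Among the proteases, the largest difference was that of CTSD, which codes for cathepsin D, the main aspartic protease of the lysosome (chromosome 11, 1752752 to 1764573, GRCh38, GENCODE 29). CTSD was at 159, 145 and 158 TPM in the MONO-MAC-6 DMSO samples and at 566, 722 and 683 TPM with A9. Every A9 sample was above every DMSO sample by a wide margin, a difference of 2.08 on the log2 scale (SE 0.110; limma adjusted p = 0.00133, n = 3 per group). In MOLM-13 the levels were 38.7, 40.00 and 42.9 TPM with DMSO and 49.8, 55.8 and 50.9 TPM with A9. There too the groups did not overlap, but the log2 fold change of 0.36 did not pass (limma adjusted p = 0.206). Most of the RNA in MONO-MAC-6 was assigned to 1 transcript, CTSD-201, whose mean was 129.5 TPM with DMSO and 623.4 TPM with A9.

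CTSH, an aminopeptidase of the papain family, was also higher with A9 in MONO-MAC-6, at 6.92, 6.69 and 6.37 TPM and then 10.2, 12.6 and 11.97 TPM (log2 fold change 0.72, limma adjusted p = 0.0365). The groups were apart, and in MOLM-13 the gene stayed at or below 0.269 TPM. Most of the CTSH RNA in MONO-MAC-6 was assigned to CTSH-207, a transcript of 719 bases. Its mean was 4.83 TPM with DMSO and 9.31 TPM with A9. CTSH-201, of 2190 bases, was at 0.621 and 0.625 TPM, so the rise depends on the transcripts counted. CTSZ, a carboxypeptidase, rose by 0.62 on the log2 scale (limma adjusted p = 0.0360). TPP1, tripeptidyl peptidase 1, which removes tripeptides from the amino end of proteins, was called or not depending on the low sample. Its levels were 13.4, 29.8 and 33.9 TPM with DMSO and 50.9, 55.3 and 52.5 TPM with A9. DMSO sample 1 was far below the other DMSO samples, and the difference of 1.11 did not pass (limma adjusted p = 0.138). Without that sample it was 0.72 and passed (limma adjusted p = 0.000298).

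The cysteine proteases CTSC and CTSS ran the other way. CTSC, or dipeptidyl peptidase 1, activates the granule serine proteases of myeloid cells, and CTSS trims the invariant chain of MHC class II. CTSC was at 278, 277 and 277 TPM with DMSO and 258, 236 and 244 TPM with A9, and CTSS at 44.3, 46.1 and 51.4 and 37.8, 43.4 and 41.5 TPM. In both genes each A9 sample was below each DMSO sample. The differences were small, -0.17 for CTSC and -0.20 for CTSS on the log2 scale, and neither passed (limma adjusted p = 0.230 and 0.305). Without DMSO sample 1 both passed as lower (limma adjusted p = 0.0307 and 0.0441). With protein-coding transcripts alone the CTSS difference was 0.033, so its direction depends on the transcripts counted.

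Among the glycosidases, which cut sugars from glycoproteins, glycolipids and glycogen, FUCA1 and GAA had the largest differences. FUCA1, the fucosidase, was at 8.18, 9.67 and 9.40 TPM with DMSO and 20.6, 27.1 and 24.8 TPM with A9 in MONO-MAC-6. The A9 samples were all far above the highest DMSO sample, a difference of 1.32 on the log2 scale (SE 0.142; limma adjusted p = 0.00758). In MOLM-13 FUCA1 was at 6.91, 6.65 and 5.90 TPM and 7.05, 7.39 and 5.95 TPM, and the groups overlapped. Leaving out A9 sample 2 or 3 in MONO-MAC-6 left the FUCA1 difference at 1.23 or 1.29, no longer past the threshold (limma adjusted p = 0.0701 and 0.0777).

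GAA, the acid glucosidase that degrades glycogen, was at 13.4, 18.9 and 19.7 TPM with DMSO and 32.3, 35.1 and 35.7 TPM with A9 in MONO-MAC-6, with no overlap (log2 fold change 0.97, limma adjusted p = 0.0313). In MOLM-13 it was at 11.4, 9.71 and 9.65 TPM and 13.5, 14.6 and 9.67 TPM, and A9 sample 3 fell among the DMSO samples. The call for GAA passed in 1 of 6 fits that each left out a MONO-MAC-6 sample, the one without DMSO sample 1, with adjusted p up to 0.183 in the others. MAN2B1, a mannosidase and the glycosidase with the highest mean level, was at 80.1, 89.7 and 101 TPM and 133, 135 and 133 TPM (log2 fold change 0.57, limma adjusted p = 0.0369). Its A9 samples lay close together, above the range of DMSO. In MOLM-13 it was at 148, 128 and 121 TPM and 149, 164 and 126 TPM, which overlapped.

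GLA, the galactosidase that degrades globotriaosylceramide, differed by nearly the same amount in both lines. It was at 35.00, 36.2 and 34.4 TPM and then 49.7, 48.6 and 46.3 TPM in MOLM-13, and at 22.4, 21.3 and 21.1 TPM and then 29.9, 30.4 and 31.2 TPM in MONO-MAC-6. Neither pair of groups overlapped. The log2 fold change was 0.44 in MOLM-13 (limma adjusted p = 0.0914) and 0.48 in MONO-MAC-6 (limma adjusted p = 0.0435), and the difference between them had a 95% interval of -0.16 to 0.23. Under the median-of-ratios scaling the MONO-MAC-6 differences of GLA, MAN2B1, CTSH and CTSZ no longer passed (limma adjusted p = 0.277, 0.0856, 0.115 and 0.0660).

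The sulfatases remove sulfate from glycosaminoglycans and sulfatide. IDS, iduronate sulfatase, was at 1.89, 2.18 and 2.70 TPM with DMSO and 3.99, 4.92 and 4.40 TPM with A9 in MONO-MAC-6 (log2 fold change 0.74, limma adjusted p = 0.0471). It is expressed at a low level and has a pseudogene copy nearby, so its value is less certain, and it passed in 1 of 6 fits that left out a sample, with adjusted p up to 0.258. Its levels in MOLM-13 were 5.37, 3.74 and 3.32 TPM and 6.16, 6.28 and 4.18 TPM, which overlapped. ARSA, arylsulfatase A, rose in MONO-MAC-6 by 0.71 on the log2 scale (limma adjusted p = 0.0452). Part of its RNA was assigned to ARSA-206, annotated as a retained intron, with a mean of 2.25 TPM with DMSO and 4.79 TPM with A9. The protein-coding ARSA-201 and ARSA-202 went from 2.24 to 2.93 TPM and from 1.10 to 1.97 TPM. ARSB, the sulfatase with the highest mean level, was at 14.4, 26.3 and 30.1 TPM and 31.6, 30.2 and 33.2 TPM in MONO-MAC-6, and at 26.04, 21.2 and 15.7 TPM and 19.96, 25.3 and 16.4 TPM in MOLM-13. Its apparent gap in MONO-MAC-6 came to 0.16 without DMSO sample 1, from 0.47 with it, and did not pass in either.

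Of the lipid-degrading group, PSAP had the largest difference. PSAP codes for prosaposin, the precursor of the saposins, which present sphingolipids to their hydrolases (chromosome 10, 71816298 to 71851375). It was at 149, 170.4 and 178 TPM with DMSO and 461, 549.9 and 502 TPM with A9 in MONO-MAC-6, a difference of 1.60 on the log2 scale (SE 0.105; limma adjusted p = 0.00170). In MOLM-13 it was at 105, 105 and 98.1 TPM and 115, 120.3 and 102 TPM. The groups were far apart in MONO-MAC-6 and overlapped in MOLM-13. ASAH1, the acid ceramidase, which needs saposin D, was at 71.9, 93.1 and 95.7 TPM and 167, 181 and 172 TPM in MONO-MAC-6 (log2 fold change 0.997, limma adjusted p = 0.0125).

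In MOLM-13 ASAH1 was at 36.1, 34.02 and 32.2 TPM and 39.3, 37.7 and 35.4 TPM, where the groups overlapped. It passed in 2 of the 6 fits that left out a MONO-MAC-6 sample, with adjusted p up to 0.0944. Part of its RNA was assigned to ASAH1-243, a transcript annotated for nonsense-mediated decay, with a mean of 16.7 TPM with DMSO and 41.1 TPM with A9. GM2A, SMPD1 and LIPA, which code for the GM2 activator, acid sphingomyelinase and acid lipase, had log2 fold changes of 0.84, 0.34 and 0.56 in MONO-MAC-6 and did not pass. All 3 passed without DMSO sample 1.

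NPC2 and NPC1 hand cholesterol out of the lysosome. NPC2, the soluble partner and the more abundant, was at 118, 117 and 111 TPM with DMSO and 135, 145 and 136 TPM with A9 in MONO-MAC-6, and at 34.03, 33.7 and 31.3 TPM and 35.8, 38.2 and 40.8 TPM in MOLM-13. A9 samples were above DMSO samples in both lines, but by little, with log2 fold changes of 0.26 and 0.21 (limma adjusted p = 0.126 and 0.609). Without MONO-MAC-6 DMSO sample 1 NPC2 passed at 0.28 (limma adjusted p = 0.00619). NPC1 differed by 0.20 and -0.09, with overlapping groups, and its MONO-MAC-6 value without that sample was -0.0023.

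The other luminal proteins held the largest difference of the whole list. IFI30 codes for GILT, the interferon-inducible thiol reductase that opens disulfide bonds of antigens (chromosome 19, 18173162 to 18178117). IFI30 was at 36.8, 34.8 and 40.6 TPM with DMSO and 156, 186 and 183 TPM with A9 in MONO-MAC-6, a difference of 2.20 on the log2 scale (SE 0.105; limma adjusted p = 0.000922). In MOLM-13 it was at 6.04, 6.50 and 7.40 TPM and 6.81, 7.33 and 6.18 TPM, and the groups overlapped. ACP5, the tartrate-resistant acid phosphatase known from osteoclasts, was at 0.00979, 0.0433 and 0.0171 TPM with DMSO and 1.45, 1.61 and 1.80 TPM with A9 in MONO-MAC-6. It was listed at 0 in all MOLM-13 DMSO samples and at 0.0302, 0.120 and 0.0285 TPM with A9. Its difference of 1.35 on log2(TPM + 1) in MONO-MAC-6 passed (limma adjusted p = 0.00279). No fold is given because the DMSO level was close to 0.

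GRN codes for progranulin, which is cut into granulins in the lysosome (chromosome 17, 44345086 to 44353102). It was at 255, 289.5 and 329.9 TPM with DMSO and 648, 751 and 723 TPM with A9 in MONO-MAC-6, a difference of 1.28 on the log2 scale (SE 0.117; limma adjusted p = 0.00464). In MOLM-13 it was at 119, 111 and 104 TPM and 127, 152 and 111 TPM. GRN had the highest mean of the 53 genes in MONO-MAC-6 with A9, followed by CTSD, and its groups overlapped in MOLM-13. PLD3, DNASE2 and ACP2, a nuclease of the phospholipase D family, an acid DNase and an acid phosphatase, did not pass (log2 fold changes 0.44, 0.37 and 0.11). Without DMSO sample 1 PLD3 and DNASE2 passed at 0.25 and 0.30 (limma adjusted p = 0.0393 and 0.00952), and ACP2 was at -0.059 and did not.

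**Figure D3:**
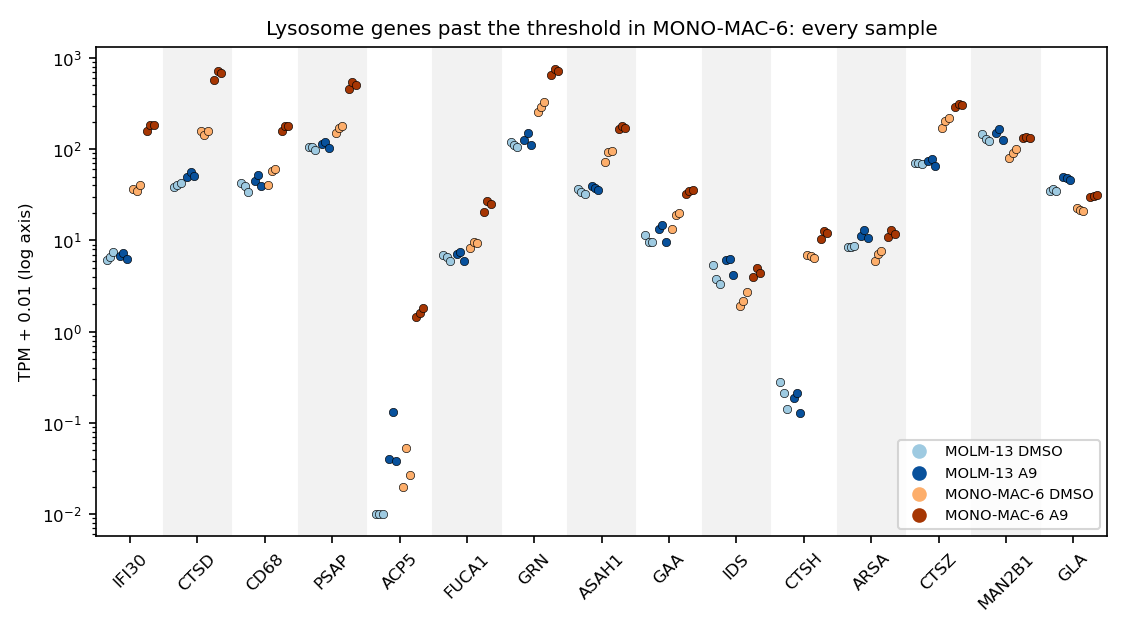
TPM plus 0.01 on a log axis in every sample for the 15 lysosome genes that passed in MONO-MAC-6, ordered by log2 fold change. IFI30 lies at 34.8 to 40.6 TPM with DMSO and 156 to 186 TPM with A9 in MONO-MAC-6, and the MOLM-13 samples of most of the genes overlap.

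Of the membrane proteins, CD68 stood out. CD68, or macrosialin, is a LAMP-family glycoprotein used as a macrophage marker (chromosome 17, 7579467 to 7582113). It was at 40.3, 56.9 and 60.1 TPM with DMSO and 159.5, 182 and 177 TPM with A9 in MONO-MAC-6, and at 42.5, 39.1 and 33.6 TPM and 44.7, 52.1 and 39.2 TPM in MOLM-13. The A9 samples of MONO-MAC-6 were all well above its DMSO samples, and the MOLM-13 groups overlapped. The log2 fold change in MONO-MAC-6 was 1.72 (SE 0.161, limma adjusted p = 0.00538), and without A9 sample 2 or 3 the adjusted p was 0.0502.

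The other membrane proteins had smaller differences. CD63, a tetraspanin and the most abundant gene of the group, was at 496, 404 and 424 TPM with DMSO and 509, 543 and 544 TPM with A9 in MONO-MAC-6, and at 148, 163 and 169 TPM and 188, 188 and 229 TPM in MOLM-13. In both lines the A9 samples were above the DMSO samples, with differences of 0.27 and 0.33 that did not pass (limma adjusted p = 0.197 and 0.397). LAMP1, LAMP2, SCARB2, which is the receptor that carries glucocerebrosidase to the lysosome, and the calcium channel MCOLN1 had log2 fold changes of 0.33, 0.28, 0.31 and 0.26. None passed with all samples. Without DMSO sample 1 CD63, LAMP1 and MCOLN1 passed at 0.36, 0.19 and 0.24 (limma adjusted p = 0.00120, 0.0139 and 0.0353), and LAMP2 and SCARB2 did not, at 0.066 and 0.088. Of the LAMP2 isoforms, the transcript for LAMP2B, at a mean of 55.4 TPM with DMSO and 64.9 TPM with A9 in MONO-MAC-6, exceeded that for LAMP2A, the receptor of chaperone-mediated autophagy, at 3.62 and 5.30 TPM. Transcripts were not tested.

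The V-ATPase subunits showed no difference that passed. ATP6V0C, the proteolipid ring subunit and the most abundant of the 6, was at 167, 181 and 201 TPM with DMSO and 219, 221 and 229 TPM with A9 in MONO-MAC-6, and at 129, 127 and 141 TPM and 136, 136 and 134 TPM in MOLM-13. It has pseudogene copies, which makes its value less certain. The MONO-MAC-6 groups did not overlap, and the log2 fold change was 0.29 (limma adjusted p = 0.149). ATP6V0D1, which links the ring to the catalytic head, was at 38.8, 32.8 and 33.8 TPM and 43.6, 44.8 and 44.99 TPM (0.34, limma adjusted p = 0.133). Without DMSO sample 1 these 2 subunits passed (limma adjusted p = 0.0172 and 0.00120).

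ATP6V1A, the catalytic subunit, had the largest fitted difference of the 6 in MONO-MAC-6 and the widest interval. It was at 5.90, 21.7 and 23.4 TPM with DMSO and 23.4, 25.9 and 25.6 TPM with A9. DMSO sample 1 alone was far below the rest, and the log2 fold change of 0.73 (95% interval -0.42 to 1.88) became 0.14 without it. The remaining subunits ATP6V1B2, ATP6V1H and ATP6AP1 lay between -0.01 and 0.33, with ATP6V1H the lowest, which was at 0.094 without DMSO sample 1. Of 11 other V-ATPase subunits examined beside them, none passed in either line. In MONO-MAC-6, 3 of the 11 had an unadjusted limma p under 0.05, against 20.4% of all genes. Their median log2 fold change there was 0.156, against 0.161 over all genes. In MOLM-13, 2 of the 11 had such a p, against 7.89% of all genes.

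The MiT/TFE factors are regulated mainly through their location in the cell, which RNA does not show. TFEB was at 5.99, 4.38 and 5.51 TPM with DMSO and 4.40, 4.47 and 3.98 TPM with A9 in MONO-MAC-6, and at 22.2, 22.4 and 23.2 TPM and 21.1, 21.6 and 22.4 TPM in MOLM-13, with overlapping groups in each. TFE3 was at 4.91, 7.08 and 7.69 TPM and 10.2, 10.6 and 10.9 TPM in MONO-MAC-6 and at 5.61, 4.72 and 4.21 TPM and 5.67, 6.73 and 4.71 TPM in MOLM-13. In MONO-MAC-6 the TFE3 groups did not overlap, and the difference of 0.63 did not pass (limma adjusted p = 0.119). It passed without DMSO sample 1 at 0.46 (limma adjusted p = 0.00415) and under the median-of-ratios scaling at 0.47 (limma adjusted p = 0.0440). MITF was at 2.27, 3.61 and 4.02 TPM and 4.13, 3.91 and 4.52 TPM in MONO-MAC-6 and at 4.80, 3.98 and 3.26 TPM and 3.67, 4.46 and 3.28 TPM in MOLM-13, again with overlap.

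Without MONO-MAC-6 DMSO sample 1 more genes passed. Then 35 lysosome genes passed as higher and 2 as lower, against 14.5% and 10.3% of all genes tested (24.8% in both directions), and the median fell to 0.314. The 15 genes that passed with all samples were all among the 35. The differences of IFI30 and CTSD hardly moved, at 2.19 and 2.10, and that of CD68 was 1.54. By role, 8 of 9 glycosidases, 5 of 5 lipid hydrolases and activators, 6 of 10 proteases and 5 of 6 other luminal proteins passed as higher, as did 3 of 4 sulfatases, 4 of 6 membrane proteins, 1 of 2 cholesterol exporters, 2 of 6 V-ATPase subunits and 1 of 3 MiT/TFE factors. Leaving out any other sample of this line gave 5 to 9 passing genes. Without A9 sample 2 or 3 only IFI30, CTSD, PSAP, ACP5 and GRN passed, so ARSA, CTSZ, CTSH, MAN2B1 and GLA did not. Over all genes, 56 to 168 then passed as higher and 3 to 43 as lower.

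**Figure D4:**
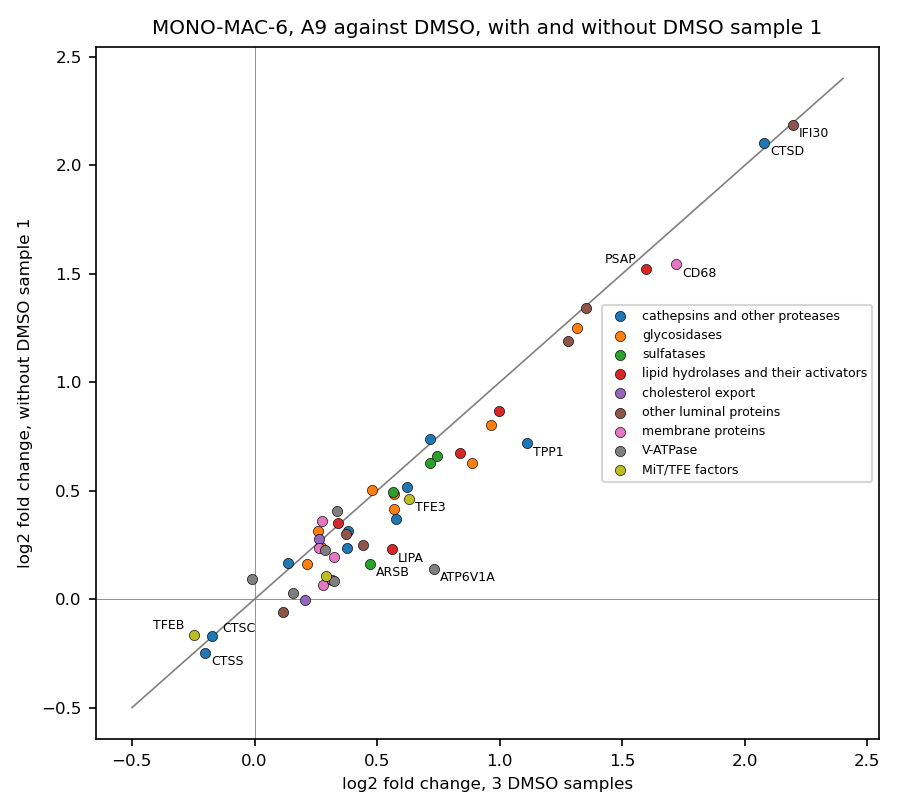
Log2 fold change of A9 against DMSO in MONO-MAC-6 for 51 lysosome genes, fitted with all 3 DMSO samples on the horizontal axis and without DMSO sample 1 on the vertical axis, with the line of equality. IFI30 and CTSD lie close to the line, whereas ATP6V1A goes from 0.73 to 0.14 and TPP1 from 1.11 to 0.72.

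Other genes of the pathway followed in smaller number. Of 85 further lysosome genes, all tested in MONO-MAC-6, 6 passed as higher and 0 as lower, against 2.51% and 0.855% of all genes, with a median of 0.276 against 0.161. Without DMSO sample 1, 34 of 84 passed as higher and 2 as lower, against 14.5% and 10.3% of all genes. The autophagy genes GABARAPL1, which conjugates to autophagosome membranes, and SQSTM1, a cargo receptor, rose by 1.46 and 1.10 (limma adjusted p = 0.0182 and 0.0110). SQSTM1 was at 73.1, 85.9 and 92.9 TPM with DMSO and 161, 206 and 178 TPM with A9, with no overlap. The membrane proteins GPNMB and LAPTM5 and the hydrolase IDUA rose by 0.94, 0.82 and 0.81, and the chloride transporter CLCN7 was the sixth. None of the 9 mannose-6-phosphate sorting genes or the 14 nutrient sensing genes passed, with 4 of each at an unadjusted p under 0.05, against 20.4% of all genes.

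Some myeloid markers rose beside these genes. In MONO-MAC-6, 3 of 7 tested myeloid markers passed as higher: CD14, LYZ and SPI1, with log2 fold changes of 1.77, 1.17 and 0.38 (limma adjusted p = 0.00255, 0.00274 and 0.0451). CD14 was at 3.71, 2.66 and 3.05 TPM with DMSO and 12.4, 13.2 and 13.5 TPM with A9. CD33, PTPRC, ITGAM and MPO did not pass with all samples, with log2 fold changes of 0.17, 0.37, 0.02 and -0.40. The direction of PTPRC and ITGAM depended on DMSO sample 1. Their ratios of mean TPM, A9 over DMSO, were 1.22 and 1.01 with it and 0.896 and 0.935 without it. Those of CD33 and MPO were 1.12 and 0.727 with it and 1.09 and 0.612 without it. In MOLM-13 LYZ was the one of 7 that passed (1.29, limma adjusted p = 0.00517), while CD14 stayed at or below 0.491 TPM. There PTPRC and ITGAM were at -0.95 and -0.40, and CD33, MPO and SPI1 at 0.23, 0.16 and 0.14, none of which passed. CSF1R was at 0.474, 0.502 and 0.566 TPM with DMSO and 1.73, 1.04 and 0.748 TPM with A9 in MOLM-13. Its groups did not overlap, and it did not pass. In MONO-MAC-6 CSF1R was below the minimum in both groups. The part of these markers in the lysosome result was not tested.

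In MOLM-13, 46 lysosome genes were tested and limma called none after adjustment. Over all genes tested there 0.121% passed. At an unadjusted p under 0.05 there were 5 (7.89% of all genes), all higher with A9: GLA, CTSD, ARSA, CD63 and NPC2. The median log2 fold change was 0.102 against -0.0461 over all genes, and 37 of the 46 were fitted above 0 (80.4%) against 38.8% of all genes. Groups did not overlap for 8 of the 46, against 15% of all genes. Of the 8, 6 were higher with A9 (8.59% of all genes) and 2, HEXA and DNASE2, were lower (6.42%). CTSF, CTSH, LGMN, NEU1, ACP2, ACP5 and SGSH were below the minimum. HEXA, a subunit of the hexosaminidase that degrades GM2 ganglioside, was at 21.4, 21.3 and 21.1 TPM and 19.5, 19.6 and 17.1 TPM.

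The response to A9 differed between the lines for 11 of 51 genes tested in a model of all 12 samples, in each case higher in MONO-MAC-6, against 2.99% of all genes (1.92% higher). They were IFI30, CTSD, CD68, PSAP, ACP5, FUCA1, GRN, ASAH1, CTSH, HEXA and DNASE2. The difference of the log2 fold changes was 2.17 for IFI30 (95% interval 1.84 to 2.50, limma adjusted p = 3.94e-05) and 1.72 for CTSD (95% interval 1.43 to 2.01, limma adjusted p = 7.64e-05). HEXA and DNASE2 are in this group although neither passed within a line with all samples (in MONO-MAC-6 both did without DMSO sample 1, HEXA with limma adjusted p = 0.000961): HEXA went from 80.4, 108 and 114 TPM to 144, 155 and 148 TPM in MONO-MAC-6 and was lower with A9 in MOLM-13. GAA, IDS, ARSA, CTSZ, MAN2B1 and GLA, which passed in MONO-MAC-6, did not pass here. No sulfatase, V-ATPase subunit, cholesterol exporter or MiT/TFE factor passed here. At an unadjusted p under 0.05, which 17.7% of all genes reached, there were 1, 2, 0 and 0 of them.

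The levels with DMSO also differed between the lines. Of 50 genes tested, 30 were higher in MONO-MAC-6 and 6 lower, against 30.4% and 18.4% of all genes (48.8% in all). The median difference was 0.691, against 0.119 over all genes. The lines are in separate tables, so line and table cannot be told apart. By role, 8 of 10 proteases, 6 of 9 glycosidases and both cholesterol exporters were higher in MONO-MAC-6, but 2 of 6 V-ATPase subunits and none of the 3 MiT/TFE factors were.

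Several hydrolases were near 0 in MOLM-13 and expressed in MONO-MAC-6. SGSH, the heparan sulfamidase, was at 0.143, 0.384 and 0.121 TPM in MOLM-13 and 16.7, 18.7 and 20.3 TPM in MONO-MAC-6 (log2 difference 4.01, limma adjusted p = 7.26e-06). CTSF, a papain-family protease, was listed at 0 in all MOLM-13 DMSO samples and was at 6.07, 6.95 and 7.28 TPM in MONO-MAC-6. CTSH was at 0.269, 0.205 and 0.131 TPM and 6.92, 6.69 and 6.37 TPM. All 3 passed as higher in MONO-MAC-6, as did 30.4% of all genes tested. SGSH and CTSF with A9 were at 29.9, 26.9 and 26.9 TPM and 7.32, 9.95 and 10.3 TPM in MONO-MAC-6, and did not pass against DMSO (limma adjusted p = 0.0569 and 0.249). Without DMSO sample 1 SGSH passed (limma adjusted p = 0.00215) and CTSF did not (0.129).

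Other genes were expressed in both lines but higher in MONO-MAC-6. CTSL, a broad cysteine protease with pseudogene copies, was at 3.61, 3.32 and 3.40 TPM in MOLM-13 and 27.3, 40.5 and 44.5 TPM in MONO-MAC-6 (log2 difference 3.08, limma adjusted p = 6.28e-05). GLB1, the acid galactosidase, was at 23.2, 22.6 and 18.8 TPM and 111, 121 and 126 TPM (2.42). SMPD1 was at 1.20, 1.42 and 1.85 TPM and 8.92, 8.31 and 8.998 TPM (1.98). All 3 passed as higher, and so did PLD3, at 52.6, 53.5 and 39.6 TPM and 156, 216 and 250 TPM (2.06). Over all genes tested 30.4% did. With A9, CTSL was at 4.02, 4.49 and 3.33 TPM and 54.7, 56.3 and 54.7 TPM, GLB1 at 22.3, 24.4 and 21.02 TPM and 131, 144 and 140.4 TPM, SMPD1 at 1.77, 1.57 and 2.09 TPM and 11.3, 11.4 and 11.2 TPM, and PLD3 at 52.4, 61.7 and 42.8 TPM and 260, 286 and 285 TPM, in MOLM-13 and MONO-MAC-6. IFI30, HEXA and CTSD were higher in MONO-MAC-6 by 2.33, 2.18 and 1.90.

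**Figure D5:**
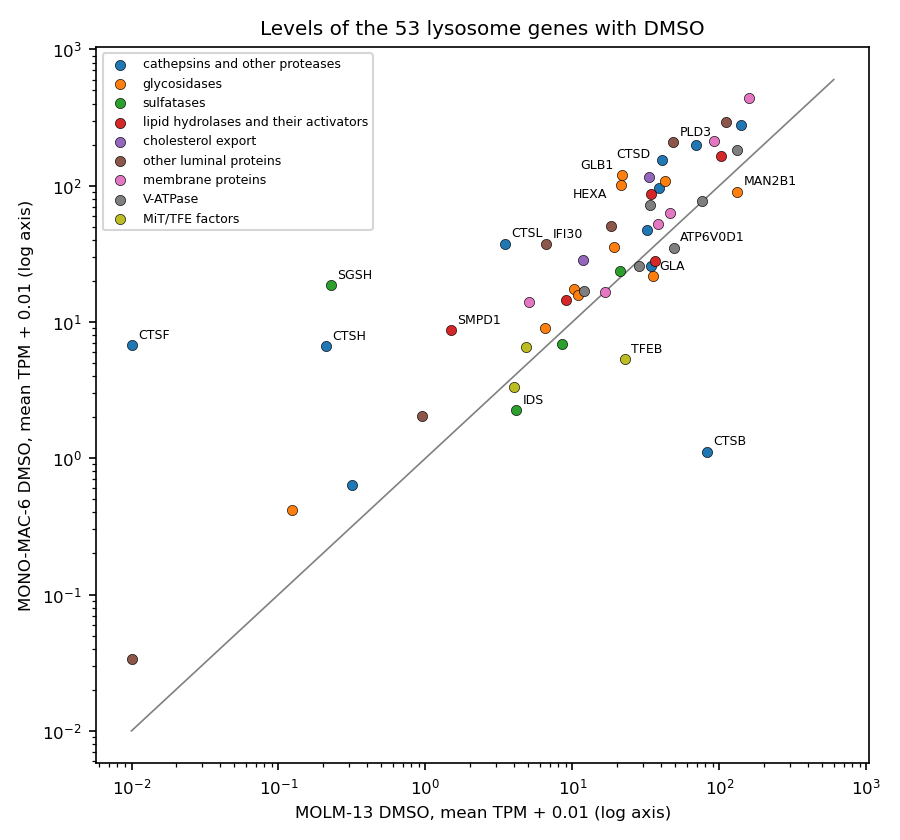
Mean TPM plus 0.01 of the 53 lysosome genes with DMSO in MOLM-13 (horizontal) and MONO-MAC-6 (vertical), both on log axes, coloured by role, with the line of equality. Most genes lie above the line, CTSF and SGSH far above it, and CTSB far below it.

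The reverse was seen for CTSB, a cysteine protease that many cell types express. CTSB was at 84.3, 85.8 and 77.05 TPM in the MOLM-13 DMSO samples and at 1.19, 0.975 and 1.15 TPM in MONO-MAC-6, a log2 difference of -5.31 (limma adjusted p = 1.65e-06). A9 left these levels at 83.7, 89.2 and 74.96 TPM and 1.48, 1.60 and 0.915 TPM. Of 28 CTSB transcripts matched, 10 had a mean above 1 TPM in a MOLM-13 group and 0 in a MONO-MAC-6 group, where the highest mean was 0.762 TPM. Transcripts without a match in GENCODE 29 are not in these sums, so a CTSB transcript of newer annotation could hold reads that are not counted here.

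TFEB was also lower in MONO-MAC-6, with a log2 difference of -1.92 (limma adjusted p = 9.05e-05), with the levels given above. GLA, IDS, MAN2B1 and ATP6V0D1 were lower by smaller amounts, with log2 differences of -0.68, -0.65, -0.55 and -0.47. The IDS difference passed in 2 of 6 fits that each left out a sample, with adjusted p up to 0.0926, and not in the one without MONO-MAC-6 DMSO sample 1. ATP6V0D1 was at 48.5, 48.8 and 49.5 TPM in MOLM-13 with DMSO and 52.8, 52.9 and 49.6 TPM with A9. Of the 85 further lysosome genes, 35 were higher in MONO-MAC-6 and 7 lower, against 30.4% and 18.4% of all genes. SORT1, a sorting receptor for hydrolases, and RRAGD, a GTPase that presents MiT/TFE factors to mTORC1, had the highest differences, 2.87 and 2.31. GNPTAB, whose product starts the mannose-6-phosphate tag, had the lowest, -1.52.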

How the data were processed

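Per the labels, bulk RNA was sequenced in 36 libraries, 9 for each of 4 groups. The deposited tables of the authors hold TPM per Ensembl transcript. The submitters' processing notes name kallisto, limma and GRCh38 with no role or version. The tables hold no gene names and no counts, so depth is unknown. Of 207175 transcripts, 162561 (78.5%) matched GENCODE 29 (GRCh38) and held 89.9% to 91.4% of each library's TPM. Their TPM were summed by gene symbol. Of the 44614 without a match, 28441 have Ensembl numbers above the highest in GENCODE 29 and may hold part of the reads of a listed gene, such as CTSB, LGMN or NEU1. NEU1 also lies in the MHC region, which has haplotype copies.

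TPM were averaged over the 3 libraries of a sample, those with the same first number. The median SD of the listed genes on the log2 scale among libraries that share a first number was 0.0577 for MOLM-13 and 0.0487 for MONO-MAC-6, and among libraries that share a second number it was 0.144 and 0.129. Values were log2(TPM + 1). A gene entered the test when 1 of its groups averaged 1 TPM or more. The test was limma 3.58.1 in R 4.3.3 (trend and robust), two-sided, with the Benjamini-Hochberg adjustment across every gene tested and a threshold of 0.05. The fits covered A9 against DMSO in each line (6 samples), the difference between the lines (12 samples) and the lines with DMSO (6 samples). The method was tested on simulated data. The smallest two-sided p that permuting 3 against 3 samples allows is 0.1, hence a model across genes.

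The members and lists were chosen with earlier results of these data known. One of the lists of other cell types is not reported here. Values are given in every sample for up to 10 higher and 10 lower passing genes per comparison, for the gene with the highest mean in each role and for TFEB, TFE3 and MITF. Some other genes are given in every sample too, chosen after their values were seen, as TPP1, CTSC and CTSS were. Of the further pathway genes, up to 5 in each direction are named per comparison, and CLCN7 completes a count. The other settings tried were no filter or one at 5 TPM, a pseudocount of 0.1, median-of-ratios scaling, a lowess correction for transcript length per sample (span 0.3), other uses of the 3 libraries of a sample, a replicate block, protein-coding transcripts alone, and leaving out each sample.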

Additional observations from a re-analysis of the deposited data

Results flagged for a closer look

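For 11 lysosome genes the log2 fold change of A9 against DMSO differed between MONO-MAC-6 and MOLM-13 by limma's interaction test, each with a greater value in MONO-MAC-6. Line and dose cannot be told apart in this test. The luminal proteins were IFI30 with a difference of 2.17, ACP5 with 1.27, GRN with 1.07 and DNASE2 with 0.526. The proteases were CTSD with 1.72 and CTSH with 0.757. The membrane protein CD68 differed by 1.49. The lipid group held PSAP with 1.47 and ASAH1 with 0.866, and the glycosidases FUCA1 with 1.26 and HEXA with 0.743. ACP5 and CTSH were too low to be tested within MOLM-13, so their difference compares MONO-MAC-6 with a line near 0 TPM. The CTSH difference did not pass with a pseudocount of 0.1 (limma adjusted p = 0.134), with median-of-ratios scaling (0.110) or with each library entered (0.137). Nor did it pass with the replicate block. It passed in 9 of 12 fits that each left out a sample, with limma adjusted p up to 0.0563. HEXA and DNASE2 passed in neither line alone with all samples. The HEXA difference passed in 6 of 10 other settings, with limma adjusted p up to 0.191, and in 2 of 12 fits that each left out a sample, with adjusted p up to 0.120.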

How the results depend on the processing

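With limma, 15 lysosome genes passed in MONO-MAC-6, 0 in MOLM-13, 11 for the difference between the lines and 36 with DMSO. In MONO-MAC-6 the count was 8 with no filter, 31 with each library entered and 47 with libraries averaged by the second number. Over all genes, 199 passed as higher and 55 as lower of 25814 with no filter. With each library entered these were 1071 and 528 of 12869, and by the second number 6352 and 2349. Leaving out 1 sample at a time gave 5 to 37 lysosome genes. The count was 37 without DMSO sample 1, against 24.8% of all genes. It was 7 and 9 without DMSO samples 2 and 3, and 7, 5 and 5 without A9 samples 1, 2 and 3. In MOLM-13 the count was 2 with the length trend removed (GLA and LAMP2), 3 with each library entered and 26 by the second number. Of all 11596 genes, 113 passed as higher and 64 as lower with the length trend removed. With each library entered these were 134 and 100, and by the second number 1881 and 3556. For the difference between the lines 41 lysosome genes passed by the second number, against 6345 higher and 2157 lower of all 13410 genes. The other alternatives stayed within 1.5 times the lysosome counts given first. Leaving out 1 sample gave 0 lysosome genes in MOLM-13, 8 to 13 for the difference and 32 to 41 with DMSO. Over all genes, 2 to 7 then passed as higher and 0 to 1 as lower in MOLM-13. For the difference these were 137 to 320 and 58 to 229, and with DMSO 2990 to 5430 and 1656 to 2640. The cause of these shifts was not tested. With the sample number as a replicate block, 8 lysosome genes passed in MONO-MAC-6, against 90 higher and 12 lower of all 12869 genes. The lysosome count of no other comparison moved by over 1.5 times with the block. Same-numbered samples did not all deviate together (correlations of 0.361, -0.0772 and 0.676 in MOLM-13 and -0.0274, 0.0876 and -0.0908 in MONO-MAC-6), so the numbers were not taken to pair the samples, and not every sample correlated best with its own number. No lysosome gene that passed changed direction under any alternative run. Of those that did not pass, 5 of 36 changed sign under at least 1 alternative in MONO-MAC-6 (NPC1, ACP2, ATP6V1H, ATP6AP1 and CTSS), 16 of 46 in MOLM-13, 14 of 40 for the difference between the lines and 4 of 14 with DMSO. Of these, LAMP2 passed with the other sign, for the difference between the lines with the length trend removed (-0.26, limma adjusted p = 0.0467). Depth is unknown, so low genes such as ACP5, CTSF, CTSH and SGSH in MOLM-13 have no counting interval.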
